A study of Drosophila melanogaster and Drosophila melanogaster x Drosophila simulans and Drosophila simulans with 6 samples.

Results

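The basement membrane of the ovary was described through 10 genes of D. melanogaster, chosen by name from 13973 D. melanogaster genes in a table of 28229 genes of both species. Ovarian transcriptomes were compared between D. melanogaster females of the Hmr2 line and F1 hybrid females, daughters of Hmr2 mothers and fathers of the D. simulans line w501. Each group was represented by 2 libraries of polyadenylated RNA, labelled as biological replicates. Hmr2, an X-linked allele of Hybrid male rescue, increases the survival of hybrid females, and the same line carries an inversion of the X chromosome. Hybrids inherit that maternal X, so both groups carry Hmr2 and neither is a wild-type control. The study aged hybrid females for several days after eclosion, but no age is stated for the females of these libraries. Only hybrid females with developed ovaries, holding several ovarioles with egg chambers, were used. A further 2 libraries came from D. simulans w501 ovaries and serve here to estimate reads placed on the wrong species.

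A basement membrane is a sheet of extracellular matrix on the basal side of an epithelium. In the fly ovary it surrounds each egg chamber, outside the follicle cells, and it constrains the chamber as it elongates. Its core is a network of collagen IV and a network of laminin, joined by perlecan and nidogen. Follicle cells make much of this matrix themselves, and hemocytes and the fat body are other known sources of matrix proteins in the fly.

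Between 12981002 and 22363396 estimated counts were available per library. D. melanogaster genes received 97.0% and 97.3% of the counts of the D. melanogaster libraries, 45.1% and 47.7% of the hybrid counts, and 2.61% and 2.65% of the D. simulans counts. Normalised read counts are given as CPM, relative to the sum of D. melanogaster gene counts after TMM scaling, which sets the library sizes by the bulk of the genes. A difference between groups is thus relative to the other D. melanogaster alleles in the same ovaries. In the 4 D. melanogaster and hybrid libraries, 3 counts correspond to 0.159 to 0.396 CPM, and a gene at or below 3 counts was treated as at the detection floor. Libraries of D. melanogaster differed among themselves more than the hybrids did, with a chi-square per degree of freedom over genes of 87.7 against 6.13. That measure also grows with depth. D. melanogaster genes held 18862883 and 13254184 counts in the D. melanogaster libraries and 7582260 and 8159323 in the hybrids. The difference between the D. melanogaster libraries touches the members. All 9 tested members were higher in D. melanogaster replicate 1 than in replicate 2, with a median log2 ratio of CPM of 0.60 (range 0.35 to 1.26), against a median of 0.02 over all tested genes. The corresponding median in hybrids was -0.07 (range -0.24 to 0.29). Of all tested genes, 51.9% were higher in D. melanogaster replicate 1, and 8.61% had a log2 ratio above the median of the members.

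Genes were called at an adjusted p-value below 0.05 together with a change of at least 1 on the log2 scale, in the quasi-likelihood test of edgeR over 8202 D. melanogaster genes. The D. melanogaster alleles of both collagen IV chains, all 3 laminin chains in the set and perlecan were lower in hybrid ovaries, whereas SPARC, Mmp2 and Timp did not pass the test. Of the 10 members, 9 passed the filter on low counts, 6 of these were called lower and 0 higher. Over all tested genes 10.3% were called lower and 2.99% higher. Log2 fold changes of the 9 tested members had a median of -1.41, against 0.00 over all tested genes, and all 9 were negative. The 6 called members were also those in which both hybrid libraries lay below both D. melanogaster libraries, a state seen in 37.2% of tested genes. Since the RNA came from whole ovaries, fewer cells of a type and less RNA per cell cannot be told apart.

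**Figure D1:**
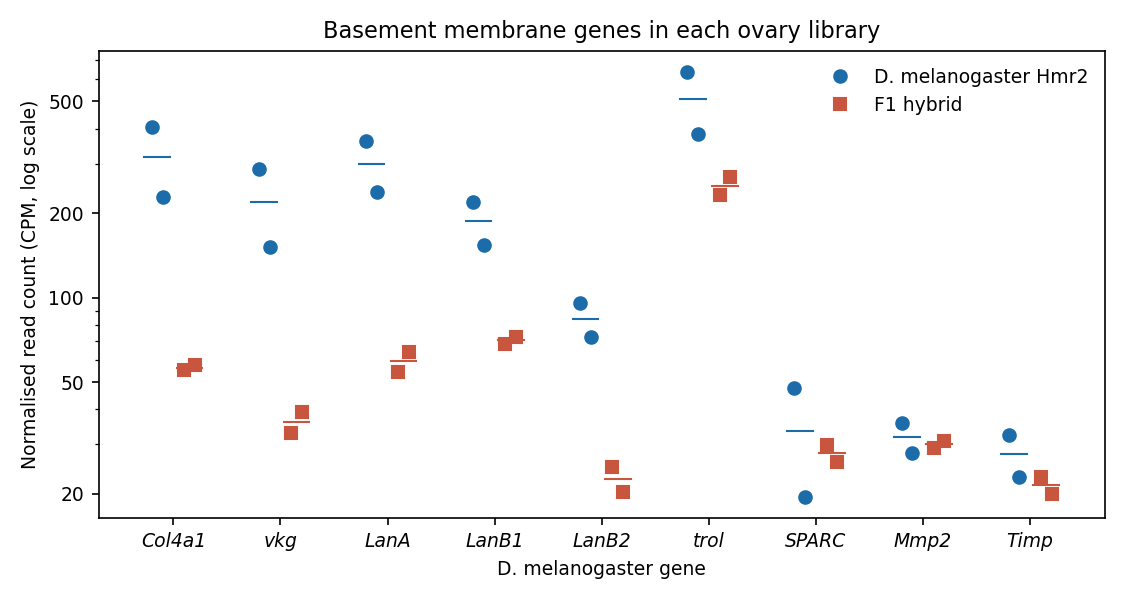
Normalised read count (CPM, log axis) of the 9 tested basement membrane genes in each of the 4 libraries, with circles for D. melanogaster Hmr2, squares for F1 hybrids and lines for the group means. The hybrid squares lie below both circles for Col4a1, vkg, LanA, LanB1, LanB2 and trol, and overlap with the circles for SPARC, Mmp2 and Timp, and the circles of a gene are farther apart than its squares in each of the 9.

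Collagen IV of the fly is built from the chains encoded by Col4a1 (Dmel_CG4145, alpha1) and vkg (Dmel_CG16858, alpha2, named viking). The genes lie head to head on chromosome arm 2L of the Release 6 assembly, Col4a1 at 5029609 to 5037279 on the plus strand and vkg at 5012144 to 5028191 on the minus strand, with 1417 bases between their annotated starts. Col4a1 reached 405 and 228 CPM in D. melanogaster and 55.0 and 57.5 CPM in hybrids. Hybrids were therefore close to each other and far below both D. melanogaster libraries, which differed from one another. Mean levels were 317 ± 125 CPM (SD, n = 2) and 56.3 ± 1.76 CPM (SD, n = 2), and the log2 fold change was -2.49 (SE 0.28, 95% interval -3.15 to -1.84, edgeR adjusted p = 0.00201), which is 5.63-fold lower in hybrids. For vkg, 288 and 151 CPM were recorded in D. melanogaster and 33.0 and 39.2 CPM in hybrids. It had the largest decrease of the members, with a log2 fold change of -2.61 (SE 0.31, 95% interval -3.33 to -1.88, edgeR adjusted p = 0.00241), or 6.09-fold. The intervals of the collagen chains overlap almost entirely.

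The D. melanogaster alleles of both chains kept nearly the same proportion to each other. On the TPM scale, which corrects for transcript length, Col4a1 exceeded vkg 1.49- and 1.59-fold in the D. melanogaster libraries and 1.76- and 1.58-fold in the hybrids. These ratios overlap between the groups, although the level of either gene differed several-fold.

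Laminin is a trimer of an alpha, a beta and a gamma chain, here LanA (Dmel_CG10236), LanB1 (Dmel_CG7123) and LanB2 (Dmel_CG3322). LanB1 is on 2L at 7811438 to 7820771, and LanA and LanB2 are on 3L at 6203831 to 6218022 and at 9614914 to 9623980. LanA, one of the alternative alpha chains of the fly, was at 362 and 238 CPM in D. melanogaster and at 54.5 and 64.1 CPM in hybrids. Its decrease was close in size to that of the collagen chains, with a log2 fold change of -2.34 (SE 0.24, 95% interval -2.89 to -1.78, edgeR adjusted p = 0.00147), or 5.06-fold. LanB2, the gamma chain, was at 96.0 and 72.6 CPM in D. melanogaster and at 25.0 and 20.3 CPM in hybrids. Its log2 fold change was -1.89 (SE 0.21, 95% interval -2.38 to -1.41, edgeR adjusted p = 0.00179). LanB1, the beta chain, went from 219 and 154 CPM to 68.6 and 72.4 CPM, and its log2 fold change was -1.41 (SE 0.20, 95% interval -1.88 to -0.93, edgeR adjusted p = 0.00512). The decrease was thus 3.71-fold in LanB2 and 2.65-fold in LanB1, the smallest among the laminin chains.

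Proportions among the D. melanogaster transcripts of the laminin chains differed between the groups. The TPM ratio of LanA to LanB1 was 0.859 and 0.806 in D. melanogaster but 0.410 and 0.465 in hybrids. For LanB2 over LanB1, the ratios were 0.466 and 0.502 in D. melanogaster and 0.386 and 0.302 in hybrids. Neither ratio overlaps between the groups. The D. melanogaster transcript of the beta chain was the more abundant relative to those of the alpha and the gamma chain in hybrids. With 2 libraries a group the exact permutation test, two-sided, cannot give a p-value below 0.333, and these ratios are values without a test.

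Perlecan, a large proteoglycan that binds collagen IV and laminin, is encoded by trol (Dmel_CG33950) on the X chromosome at 2470460 to 2545427. It was at 637 and 382 CPM in D. melanogaster and at 232 and 269 CPM in hybrids. The groups did not overlap, but its decrease was the smallest of those called, with a log2 fold change of -1.03 (SE 0.26, 95% interval -1.63 to -0.42, edgeR adjusted p = 0.0308), or 2.04-fold. That call rested on single libraries. Without D. melanogaster replicate 1 the log2 fold change was -0.61 (edgeR adjusted p = 0.00499), under the fold required. Without hybrid replicate 1 it was -0.92 (edgeR adjusted p = 0.166), and without hybrid replicate 2 it was -1.14 (edgeR adjusted p = 0.0738). Counts on this allele were also found in the D. simulans libraries, which, scaled to their total counts, held 17.5% of the hybrid level of trol. For the other called members that share ranged from 0.906% in LanB1 to 6.56% in Col4a1. These shares, and those given below for other genes, set D. simulans RNA alone against hybrids, which hold RNA of both species. The share of misplaced reads within hybrids may therefore be smaller.

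Nidogen, the linker of the laminin and collagen networks, was scarcely detected. Ndg (Dmel_CG12908, 2R at 10313891 to 10322104) was counted 5 and 9 times in the D. melanogaster libraries, with 0 and 3 counts in the hybrid libraries. Both hybrid libraries were at the floor, and the gene was not among those tested. No fold change is given for it, and a difference between the groups was not detectable at this depth.

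SPARC (Dmel_CG6378, 3R at 26869238 to 26871995) encodes a collagen-binding glycoprotein of the matrix. It was at 47.6 and 19.6 CPM in D. melanogaster and at 29.9 and 25.9 CPM in hybrids, so both hybrids lay between the D. melanogaster libraries. The log2 fold change was -0.28 (SE 0.37, 95% interval -1.15 to 0.59, edgeR adjusted p = 0.593). Its sign depended on the D. melanogaster library used, at 0.51 without replicate 1 and -0.80 without replicate 2. The interval includes a decrease of more than 2-fold, so these libraries do not settle whether SPARC differed.

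Mmp2 and Timp act on the matrix rather than build it. Mmp2 (Dmel_CG1794, 2R at 9611139 to 9683858) is a membrane-anchored metalloproteinase that cleaves matrix proteins, and it was at 35.8 and 27.9 CPM in D. melanogaster and at 29.3 and 30.8 CPM in hybrids. Timp (Dmel_CG6281, 3R at 10203875 to 10213007), the inhibitor of the fly metalloproteinases, was at 32.5 and 23.0 CPM and at 23.0 and 19.9 CPM. Both genes overlapped between the groups, Timp only through its lower D. melanogaster library. Mmp2 had a log2 fold change of -0.09 (SE 0.19, 95% interval -0.53 to 0.36, edgeR adjusted p = 0.754). Timp had one of -0.37 (SE 0.23, 95% interval -0.90 to 0.16, edgeR adjusted p = 0.245). Both intervals lie within a 2-fold change. Timp lies inside Syn, and 15.7% of its exonic bases are shared with Syn on the opposite strand, so its counts are uncertain where strand was not used in the counting. Of the other members, only Ndg shares exonic bases with another gene, 3.28% with CG34222.

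**Figure D2:**
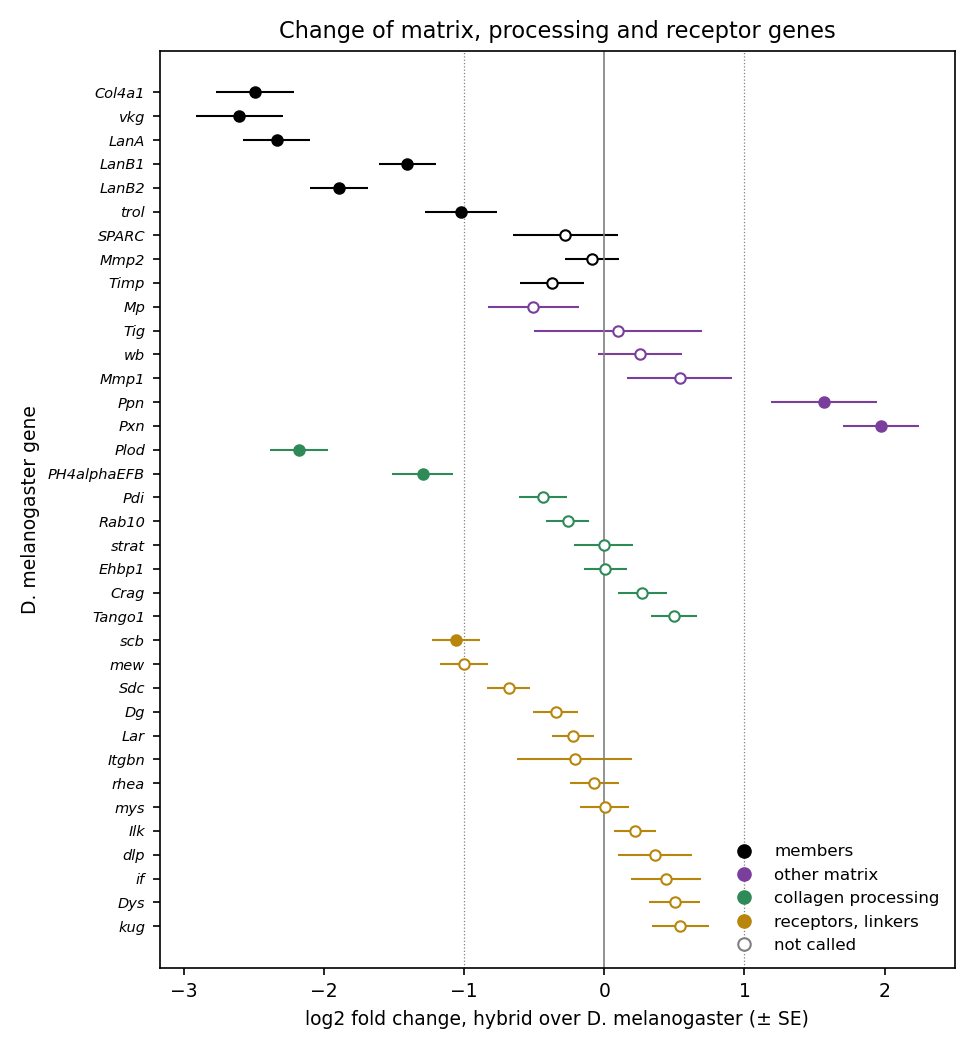
Log2 fold change in hybrids over D. melanogaster (points, with bars of 1 SE from edgeR) of the tested members in black and of tested genes of 3 further lists in colour, where filled points were called, open points were not, and dotted lines mark a 2-fold change. The black points run from -2.61 for vkg to -0.09 for Mmp2, and the points farthest to the right are Pxn at 1.97 and Ppn at 1.57.

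The order of transcript levels of the D. melanogaster alleles was different in hybrids. On the TPM scale, the D. melanogaster order was Col4a1, trol, vkg, SPARC, LanB1, LanA, Timp, LanB2, Mmp2 and Ndg. Means ran from 43.7 ± 18.5 TPM (SD, n = 2) for Col4a1 down to 6.41 ± 1.29 TPM (SD, n = 2) for Mmp2, with Ndg under 1 TPM. Of the 9 pairs of neighbours in that order, 7 overlapped when values were pooled across both libraries. Only LanB2 with Mmp2 and Mmp2 with Ndg were separated in that way. Within each library the order was the same, except for SPARC and vkg in replicate 2. There SPARC (15.1 TPM) lay below LanB1 (20.4 TPM) and LanA (16.4 TPM), and vkg (19.2 TPM) lay below LanB1. In replicate 1 vkg and SPARC were both at 38.1 TPM. In hybrids the order was SPARC, trol, Timp, LanB1, Col4a1, Mmp2, vkg, LanA, LanB2 and Ndg. SPARC stood first at 15.6 ± 1.60 TPM (SD, n = 2), and Col4a1 had moved to the fifth place with 5.57 ± 0.236 TPM (SD, n = 2). Only vkg and LanA overlapped across libraries among the hybrid neighbours, and within each hybrid library vkg was above LanA. TPM values were deposited relative to the transcripts of both species, so levels are compared here between genes of 1 library and not between the groups.

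Ratios to Col4a1 within a library carry the same shift. SPARC relative to Col4a1 was 0.671 and 0.494 in D. melanogaster and 3.10 and 2.52 in hybrids. The mean ratio was 4.82-fold higher in hybrids. Perlecan relative to Col4a1 was 0.730 and 0.778 in D. melanogaster and 1.97 and 2.14 in hybrids. The LanB1 ratio to Col4a1 was 0.531 and 0.665 against 1.24 and 1.21. Among D. melanogaster alleles in hybrids, transcripts of SPARC, perlecan and the beta laminin chain thus each exceeded those of the collagen alpha1 chain. In D. melanogaster each was below them. D. simulans alleles were not analysed, so the proportions over both alleles in hybrid ovaries are not known. Timp relative to Mmp2, the inhibitor over the enzyme, was 2.46 and 2.23 in D. melanogaster and 2.14 and 1.75 in hybrids.

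**Figure D3:**
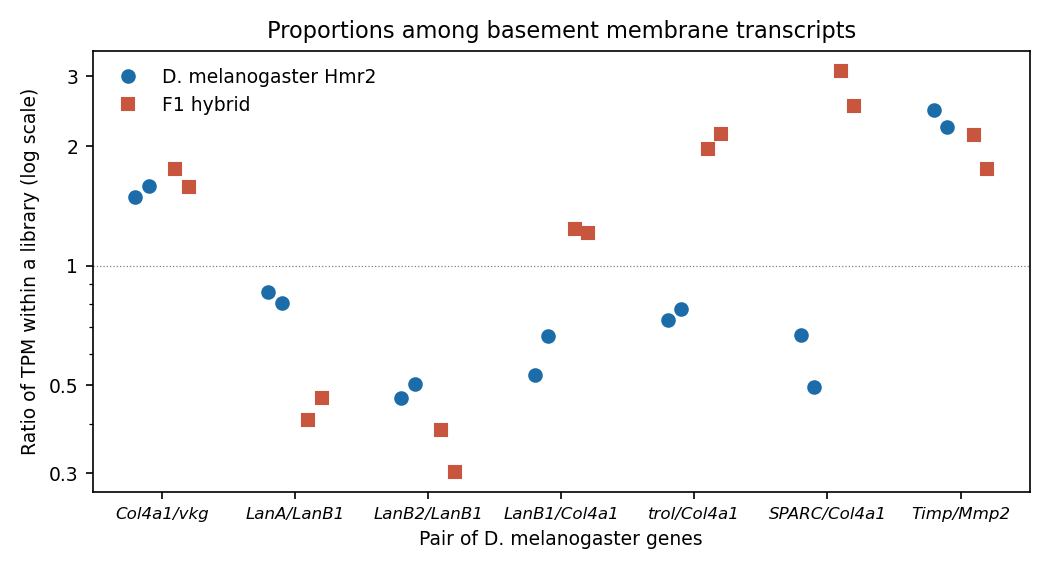
Ratios of TPM between pairs of members within each library (log axis), with circles for D. melanogaster Hmr2 and squares for F1 hybrids. Circles and squares overlap for Col4a1 over vkg, at 1.49 to 1.76, and are separate for SPARC over Col4a1, at 0.494 and 0.671 against 2.52 and 3.10.

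Genes were ranked by likeness to Col4a1, as the root mean square difference of log2 CPM, centred on the mean of each gene, over the 4 libraries. Among 8201 genes vkg came 4th with 0.0891 on the log2 scale. The genes ahead of it were Cad86C, a cadherin (0.0574), amd (0.0595) and the gene Dmel_CG8799 (0.0887), and CG13148 was 5th (0.0994). LanA followed at rank 15 with 0.117, and LanB2 at rank 140 with 0.341. LanB1 was at 406 and trol at 816, while Timp, SPARC and Mmp2 were at 2226, 3126 and 3385. The measure includes the difference between the D. melanogaster replicates, and with 4 libraries it is a description.

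Genes that modify and export collagen were a second group, with 8 members that were all tested. Of these, 2 were called lower, beside 10.3% of all tested genes, and 0 higher, and the median log2 fold change was -0.13. Both called genes encode hydroxylases of collagen. Plod, the lysyl hydroxylase, was at 239 and 170.2 CPM in D. melanogaster and at 46.2 and 44.2 CPM in hybrids (log2 fold change -2.18, SE 0.21, edgeR adjusted p = 0.00116). PH4alphaEFB, a prolyl hydroxylase subunit, was at 39.2 and 29.5 CPM and at 13.1 and 14.8 CPM (log2 fold change -1.30, SE 0.22, edgeR adjusted p = 0.00852). The groups were separate for each. The secretion genes differed less from the bulk. Tango1, which helps large cargo such as collagen leave the endoplasmic reticulum, had a log2 fold change of 0.49 (edgeR adjusted p = 0.0660), and Rab10, a GTPase for polarised secretion, had one of -0.26 (edgeR adjusted p = 0.236). Pdi, the protein disulfide isomerase, had one of -0.44 (edgeR adjusted p = 0.102).

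Of 9 other genes of the basement membrane and the surrounding matrix, 6 were tested, 0 were called lower and 2 higher. Their median log2 fold change was 0.40, and the share called higher over all tested genes was 2.99%. Pxn, peroxidasin, which cross-links collagen IV, rose from 21.0 and 11.7 CPM to 63.2 and 66.0 CPM (log2 fold change 1.97, SE 0.27, edgeR adjusted p = 0.00412). Ppn, papilin, a proteoglycan-like glycoprotein of the matrix, rose from 55.1 and 21.4 CPM to 108.9 and 119.2 CPM (log2 fold change 1.57, SE 0.38, edgeR adjusted p = 0.0276). Hybrids were above both D. melanogaster libraries in each. The value of Ppn depended on the D. melanogaster library used, at 2.41 without replicate 1 and 1.02 without replicate 2. The alternative laminin alpha chain wb had a log2 fold change of 0.26 (edgeR adjusted p = 0.544), Mp, a collagen XV/XVIII homologue, one of -0.51 (edgeR adjusted p = 0.267), and the metalloproteinase Mmp1 one of 0.54 (edgeR adjusted p = 0.307). For Mp the D. simulans libraries held 53.4% of the hybrid level, so reads of both alleles may enter its value. Of those untested, prc and Loxl2 had 0 counts in all 4 libraries, and Loxl1 was counted 30 and 7 times in the D. melanogaster libraries and 0 and 2 times in the hybrid libraries.

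Receptors and linkers that hold cells to the matrix were represented by 14 genes, of which 13 were tested, 1 was called lower and 0 higher. Their median log2 fold change was -0.07. Over all tested genes the share called lower was 10.3%. The called gene was scb, an integrin alpha chain, at 53.5 and 46.8 CPM in D. melanogaster and at 23.2 and 24.9 CPM in hybrids (log2 fold change -1.06, SE 0.17, edgeR adjusted p = 0.00764). Without D. melanogaster replicate 1 or without hybrid replicate 1 it was no longer called, and its values ran from -1.18 to -0.96 as each library was left out. The count of 1 depended on the fold required. The integrin alpha chain mew, named after its values were seen, had a value of -0.9996 on the log2 scale (SE 0.17, edgeR adjusted p = 0.00928). It missed that threshold narrowly and was called in 6 of 13 alternatives. For mew the D. simulans libraries held 39.2% of the hybrid level. Sdc, the heparan sulfate proteoglycan syndecan, had a log2 fold change of -0.68 (edgeR adjusted p = 0.0224), under the fold required in the main comparison. The integrin beta chain mys had one of 0.00 (edgeR adjusted p = 0.997) and the integrin-linked kinase Ilk one of 0.22 (edgeR adjusted p = 0.294).

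Markers of the cell types of the ovary and of other sources of matrix also differed between the groups. The shares over all tested genes were 10.3% called lower and 2.99% called higher. For the follicle epithelium, 5 of 6 markers were tested, 3 were called lower (tj, eya and br) and 0 higher. Fas3 and cas, the other tested markers, were not called and had positive log2 fold changes of 0.31 and 0.35. For br the D. simulans libraries held 63.9% of the hybrid level. Summed levels of the list were 239 and 200.4 CPM in D. melanogaster and 96.1 and 84.9 CPM in hybrids. For late egg chambers, 10 of 12 markers of yolk, vitelline membrane and chorion were called lower and 0 higher. Their sum was 20082 and 12460 CPM in D. melanogaster and 3368 and 4435 CPM in hybrids. Germline markers were present in all 4 libraries, with 3 of 8 called lower and 1 higher and sums of 4179 and 4722 CPM in D. melanogaster and 3603 and 3694 CPM in hybrids. Of 7 hemocyte markers, 6 were tested, 5 were called higher (Hml, NimC1, eater, PPO1 and PPO2) and 0 lower, He was at 0, and the sums were 87.2 and 54.7 CPM in D. melanogaster and 88.6 and 100.9 CPM in hybrids. Most of the D. melanogaster sum was srp, which was not called, at 80.1 and 48.8 CPM in D. melanogaster and 45.1 and 54.6 CPM in hybrids. The called hemocyte markers had log2 fold changes from 1.76 for PPO2 to 3.42 for Hml, and the median of the tested markers was 2.49. Of 5 fat body markers, 2 were tested and 0 called, and Lsp2 and Fbp2 were at or below 3 counts, with sums of 8.55 and 19.4 CPM in D. melanogaster and 4.45 and 7.97 CPM in hybrids. In the germarium soma list 2 of 4 were tested and 0 called, en was at 0, and the sums were 8.54 and 6.71 CPM in D. melanogaster and 4.36 and 4.80 CPM in hybrids. Of 13 muscle markers 11 were called higher and 0 lower, with sums of 757 and 502 CPM in D. melanogaster and 2034 and 1905 CPM in hybrids. Like the members, the sums of late egg chamber, hemocyte and muscle markers were higher in D. melanogaster replicate 1 than in replicate 2, by 1.61-, 1.59- and 1.51-fold. Sums of germarium soma and follicle epithelium markers were also higher there, by 1.27- and 1.19-fold. The ratio of replicate 1 to replicate 2 was below 1 for germline (0.885) and fat body markers (0.442). The part of these cell types in the levels of the matrix genes was not tested.

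**Figure D4:**
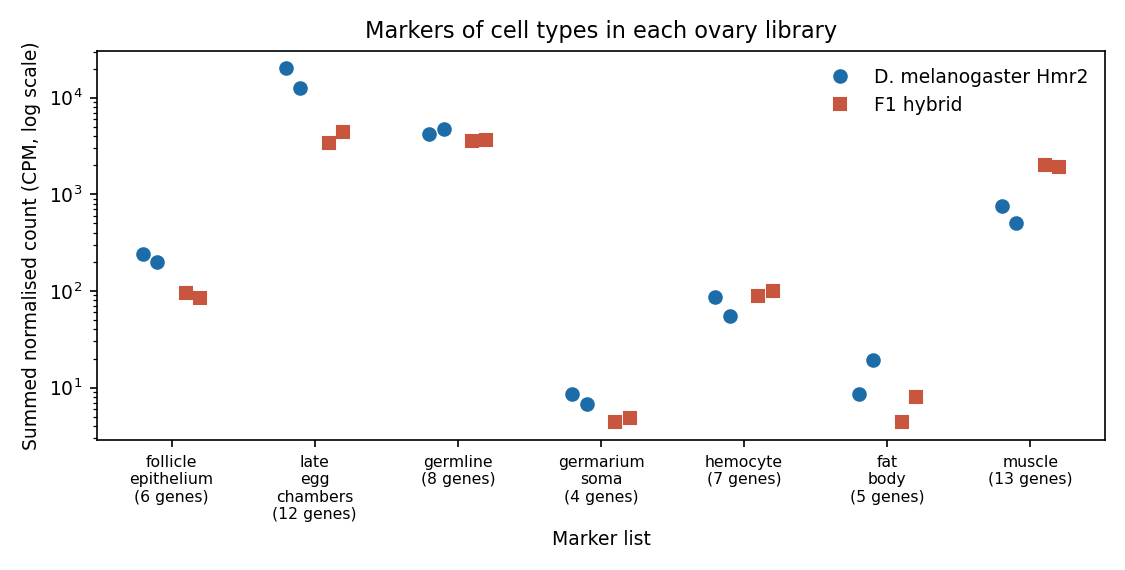
Summed normalised read count (CPM, log axis) of 7 lists of cell type markers in each library, with circles for D. melanogaster Hmr2 and squares for F1 hybrids, and the number of genes of each list under its name. Squares lie below circles for follicle epithelium, 84.9 and 96.1 against 200.4 and 239 CPM, and above them for muscle, 1905 and 2034 against 502 and 757 CPM.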

How the data were processed

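Polyadenylated ovarian RNA was sequenced from directional libraries. The authors filtered reads for quality, assigned them to RefSeq transcripts of the merged genomes with kallisto 0.50.0, run as for single-end reads, and summed protein-coding transcripts to genes with tximport. The deposited estimated counts need not be whole, since a read matching several transcripts is divided among them. The deposited TPM values relate each gene to the transcripts of the merged genomes. No strand option is stated for the kallisto run, so genes overlapping on opposite strands can share reads. The count column of D. melanogaster replicate 2 carries a TPM header in error, and it was identified by being proportional, after division by a length, to those TPM values. A further 6 length columns without sample names were left out. D. simulans alleles were not analysed here.

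Groups and replicate numbers came from the sample titles. Estimated counts were rounded and tested in R 4.3.3 with edgeR 4.0.16 (glmQLFit and glmQLFTest, two-sided) on the 2 D. melanogaster and 2 hybrid libraries. TMM was computed within D. melanogaster genes after filterByExpr with a minimum of 10 counts, and p-values were adjusted by Benjamini-Hochberg over all 8202 tested genes. Calls required an adjusted p-value below 0.05 and a log2 change of 1 or more in size. The script was tested on simulated data. Alternatives were DESeq2 1.42.0, limma 3.58.1 on log2(TPM + 1) and log2(TPM + 0.1) with TPM rescaled within D. melanogaster genes, other filters, TMM over both species, no minimum fold, all 6 libraries in the fit, a replicate block and leaving out each library. Precision was limited by 2 libraries a group and by totals of 7582260 to 18862883 counts on D. melanogaster genes in the tested libraries. The floor covers counting error alone, as PCR duplicates could not be recognised. The labels call the libraries biological replicates without naming separate crosses or cultures.

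Positions are from RefSeq for the Release 6 assembly and exons from the Ensembl annotation of that assembly. Of the lists, named are the called genes, up to 6 a list, and up to 3 not called with the highest mean TPM. The genes most like Col4a1 were the 5 with the smallest distance. Members, lists and markers were chosen with earlier results of these data known.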

Additional observations from a re-analysis of the deposited data

Results flagged for a closer look

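Libraries of D. simulans w501, which hold no D. melanogaster genome, were not part of the comparison. Counts on D. melanogaster alleles in them were taken as reads placed on the wrong species, and their source was not tested. For 4 members both D. simulans libraries held more than 3 counts. The trol allele had 272 and 489 counts, and Col4a1 had 19.2 and 47.6 counts. LanB2 had 5.42 and 9.90 counts, and LanA had 4.16 and 7.27 counts.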

How the results depend on the processing

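Calls of the members were recomputed under 13 alternatives, and of the 117 values of single members 108 kept their side of the threshold, 9 lost the call and 0 of the called members reversed. The number called lower was 6 with DESeq2, TMM over both species, no filter, at least 10 counts in every library and no minimum fold. It was 5 with all 6 libraries in the fit and 4 with limma on log2(TPM + 1) or log2(TPM + 0.1), and it ranged from 5 to 6 as each library was left out, where a lone library is assumed to vary like the rest. Over all genes 841 were called lower in the main comparison, 1502 with TMM over both species, 1233 with no minimum fold, 1036 with no filter, 796 with DESeq2 and 396 and 406 in the limma fits. The number of members called higher was 0 throughout. Perlecan lost its call in 7 alternatives, at -1.05 with all 6 libraries (adjusted p = 0.0618) and at -0.50 and -0.51 in the limma fits (adjusted p = 0.151 and 0.143). LanB1 lost its call only in the limma fits, at -0.88 and -0.91. TMM over both species moved the median of all genes by -0.36, and the limma fits by 0.47, where SPARC (0.31 and 0.32), Mmp2 (0.36 and 0.39) and Timp (0.11 and 0.12) took the opposite sign without passing the test. Mmp2 also had the opposite sign, 0.10, without D. melanogaster replicate 1. Leaving out each library in turn gave -2.88 to -2.02 for Col4a1, -3.02 to -2.07 for vkg, -2.64 to -2.01 for LanA, -1.67 to -1.13 for LanB1 and -2.11 to -1.68 for LanB2. Among the other matrix genes 2 were called higher in every alternative, and 1, Loxl1, was called lower with no filter on low counts. Plod, Pxn and Ppn kept their calls in all 13 alternatives. PH4alphaEFB lost its call in the limma fits, and scb in these and as given above. In the lists of other matrix, processing and receptor genes 6 values lost a call and 8 gained one, 6 of the latter being mew and 2 Sdc (TMM over both species and no minimum fold).

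Libraries with the same replicate number did not deviate together across genes (correlation -0.00), and the labels state no pairing. With 2 libraries a group, this value cannot decide whether same-numbered libraries shared a batch. With the replicate number as a block 5 members were called lower, perlecan alone being lost at -0.98, and 2 other matrix genes were called higher. Depth limits Ndg, whose counts are too few for any call.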
